A study of Mus musculus with 4 samples.

Results

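The zinc finger genes Zfp600 to Zfp999 were examined by m6A-seq in the mouse brain. Members were the protein-coding genes of GENCODE M21 (GRCm38, mm10) whose symbols run from Zfp600 to Zfp999 with no letter after the number. The rule found 171 genes of 21951 protein-coding genes. m6A-seq pulls down fragments of mRNA with an antibody against N6-methyladenosine (m6A) and compares them with the same mRNA before pull-down, the input. A peak is a stretch of transcript enriched in the pull-down, and its fold enrichment is the ratio of pull-down to input signal.

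Whole brains of C57BL/6J mice at 4 weeks of age were used, and the series design gives the animals as Prrc2a flox/flox. Floxed alleles stay functional unless a Cre recombinase is present, and no Cre is named for these samples. 2 m6A pull-down replicates each had a peak list. The 2 input replicates were not analysed here as separate files. There was a single group and no treatment, so no condition could be compared. Nothing in the labels says whether the replicates came from separate animals or from pooled tissue. The lists hold no read counts, so that depth, strand and the expression level of each gene were unknown, and a gene without a peak cannot be told apart from a gene with too little RNA.

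C2H2 zinc finger proteins are the largest family of DNA-binding proteins in mammals. Each finger is a short fold in which a pair of cysteines and a pair of histidines hold a zinc ion, and fingers follow each other through a conserved linker. Many also carry a KRAB domain, which binds Trim28 and through it brings histone methylation and heterochromatin proteins to transposable elements and other targets. In most of these genes the whole array of fingers is encoded by a single long exon at the end of the coding sequence (CDS). m6A in mRNA lies mostly in long internal exons and around stop codons, in a short sequence context named DRACH, whose centre is the methylated A followed by a C and of which GGACT (with U for T in the RNA) is a preferred form.

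The gene structure of the members followed this plan. In the representative transcript (the one with the longest CDS) the last coding exon held a median of 1311 nt of CDS and a median of 86.5% of the whole CDS, and the protein had a median of 11 fingers. At least 50% of the CDS lay in the last coding exon in 146 of the 171 genes. A stretch like the KRAB A box was found by pattern in 100 members. The pattern misses divergent boxes, so the other 71 members are those without a match, and may still hold a KRAB domain.

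Sequences around GGACT under peaks of chosen members are shown first. The sites fall either within the repeated finger code or outside it, and coverage differed between these parts of the exon. For each gene the 30 nt around a GGACT inside a peak found in both replicates are given 5′ to 3′ on the transcript strand, with GGACT in capitals and its coordinates in GRCm38 (mm10). A match is not a mapped methylated base. Strong peaks without GGACT are not shown. In Zfp738, Zfp655, Zfp786 and Zfp827, the strongest overlap of peaks of both replicates held no GGACT on the representative transcript. In Zfp619 (chr7:39537958-39537987, + strand) and Zfp688 (chr7:127419383-127419412, - strand), GGACT overlaps the codons between the pair of zinc-binding cysteines, with the second cysteine codon starting at its T.
Zfp619: ctatgagtgcaaGGACTgcaggaaagcctt
Zfp688: tcatgtgtgtgtGGACTgtggacgccggtt

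In Zfp606 (chr7:12493881-12493910, + strand), Zfp777 (chr6:48024967-48024996, - strand) and Zfp709 (chr8:71890290-71890319, + strand), GGACT ends in the threonine codon just before the second zinc-binding histidine.
Zfp606: ttaggcatcaaaGGACTcatactggagaaa
Zfp777: tgcgccaccagcGGACTcatactggtgaac
Zfp709: gaaaacatgaatGGACTcattctggagaga

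These 5 were among the 6 sites under the strongest peaks at the 2 commonest places of GGACT within a finger. Outside the finger code, GGACT lay in the rest of the last coding exon of Zfp618 (chr4:63133062-63133091, + strand) and Zfp746 (chr6:48064345-48064374, - strand), in a CDS exon upstream of it in Zfp609 (chr9:65703461-65703490, - strand), and in the 3′ UTR of Zfp697 (chr3:98428927-98428956, + strand) and Zfp703 (chr8:26980208-26980237, + strand).
Zfp618: gaactcagtgacGGACTcgctgctgctggt
Zfp746: cagcgcagctgcGGACTgtccgatggggcg
Zfp609: caaaaaaaagaaGGACTcatcaaaggaact
Zfp697: gtagagaggcttGGACTgtgtgagaactga
Zfp703: ccctcccccaccGGACTgtgtatttattta

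The linker between fingers, which recurs from finger to finger, mostly holds another, less preferred DRACH match instead. Its 2 commonest 24-nt coding forms are shown with AAACC in capitals. The first was found 119 times in 25 members and the second 58 times in 10 members.
Linker form 1: catacaggagagAAACCttacaaa
Linker form 2: catacaggagagAAACCctatgaa

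Most members carried a peak. Replicate 1 had 316 peaks over exons of 118 members (69.0% of 171), where 54.4% of all protein-coding genes had one. Replicate 2 had 283 peaks over 119 members (69.6%), against 49.5% of all genes. A peak of replicate 1 that overlapped a peak of replicate 2 over an exon, called a shared peak, was found in 108 members, 63.2% (95% Wilson interval 55.7 to 70.0, counting error only). The background over all protein-coding genes was 45.5%. Asking for a fold enrichment of 2 or more in each replicate left 105 members (61.4%) with a shared peak, against 36.8% of all genes. Gene sets with similar exons gave values on either side of the members: 81.4% of the 194 genes Zfp1 to Zfp599 and 54.8% of the 1612 other genes with at least 1000 nt of CDS in the last coding exon had a shared peak. These are counts over genes and were not tested. The length, expression and repeated sequence of the genes were not matched. How the calls in members went with repeated sequence is given below.

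The 108 members held 240 shared intervals, the stretches where peaks of both lists overlap. There were 39 members with 1 interval, 33 with 2, 21 with 3, 8 with 4, 3 with 5, 1 with 6 and 3 with 7. The mean was 2.24 intervals per gene with a shared peak, and 2.32 over all protein-coding genes. Of the other 63 members, 43 had no peak in either list, 9 had peaks in replicate 1 alone, 10 in replicate 2 alone, and Zfp748 had peaks in both lists that did not overlap.

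The long last coding exon held more of the intervals than any other region. The midpoints of 218 intervals could be placed on 1 representative transcript, and 113 of them (51.8%, 95% Wilson interval 45.2 to 58.4) lay in CDS of the last coding exon. Over all protein-coding genes this was 19.4%, and in the other genes with a long last coding exon 61.3%. The CDS upstream held 44 midpoints (20.2%), the 3′ UTR another 44 (20.2%) and the 5′ UTR 17 (7.8%). Counted by gene, 77 members (45.0%) had a midpoint in last-exon CDS, against 14.4% of all genes and 49.2% of the other long-exon genes. The members thus resembled genes of the same exon layout more than the average gene in where their intervals lay.

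The midpoints within last-exon CDS were spread along it. Cut into 5 equal parts from its start to the stop codon, the last-exon CDS held 25, 17, 26, 24 and 21 midpoints. Intervals that cover the stop codon but have their midpoint in the 3′ UTR are not among these. The parts were not counted in other genes. Within 200 nt of the stop codon there were 42 of 216 midpoints (19.4%), where all genes had 23.0% and the other long-exon genes 13.2%. A shared interval covered the stop codon itself in 48 members (28.1%), against 23.1% of all genes, 34.4% of the other long-exon genes and 43.3% of Zfp1 to Zfp599. The members were thus above all genes and below both like sets by this measure, whereas by the midpoints they were below all genes and above the other long-exon genes. In the members with a shared peak, 39.5% of the last-exon CDS bases lay inside a shared interval, and 9.9% of the 3′ UTR bases. Zfp1 to Zfp599 had 49.7% and 11.7%, and all genes 52.5% and 15.3%, so the share of bases covered was lower in the members than in each of these sets in both regions.

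**Figure D1:**
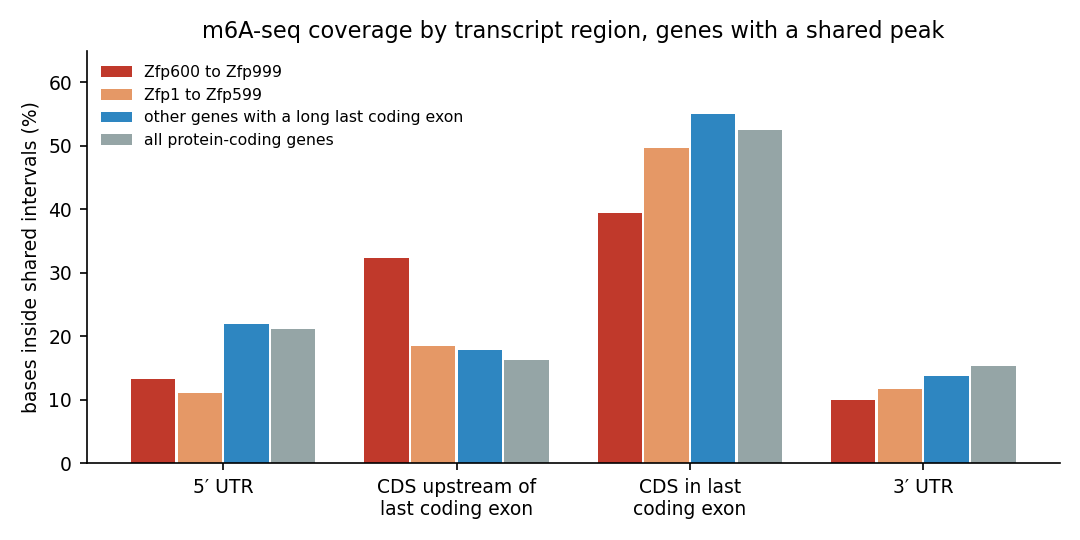
Percent of bases of each transcript region (x axis) that lie inside shared intervals (y axis), over genes with a shared peak; bars are pooled bases of a gene set and carry no error. In the 108 members 39.5% of last-coding-exon CDS and 9.9% of 3′ UTR bases were covered, and the 32.3% of upstream CDS was above the 16.2% of all protein-coding genes.

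The upstream CDS value came from a small group with another gene structure. In the 25 members with under 50% of the CDS in the last coding exon, 22 had a shared peak, and 41 of their 63 midpoints (65.1%) lay in upstream CDS, against 3 of 155 (1.94%) in the 146 genes of the usual structure. Zfp608 and Zfp646 had 5 such intervals each, Zfp638 and Zfp644 had 4 each and Zfp609 had 3. In these genes nearly all of the CDS lies in exons before the last coding one.

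Enrichment was moderate in both replicates. The median fold enrichment of member peaks was 3.3 in replicate 1 (quartiles 2.47 and 4.29, highest 9.93) and 2.78 in replicate 2 (quartiles 2.24 and 3.43, highest 5.6). All protein-coding genes had medians of 2.71 and 2.17, and the other long-exon genes 3.43 and 2.62. In the 240 shared intervals replicate 1 was the higher in 175 (72.9%), with a median log2 ratio of replicate 1 to replicate 2 of 0.31 and an SD of 0.53. Over all protein-coding genes replicate 1 was the higher in 77.8% of intervals, with a median log2 ratio of 0.37. The shares were 71.8% in Zfp1 to Zfp599 and 80.2% in the other long-exon genes. The rank correlation between the replicates was 0.35 over these intervals, 0.364 over those of Zfp1 to Zfp599 and 0.461 over those of the other long-exon genes. Over all 22338 intervals of protein-coding genes it was 0.612. These values are given as a description since intervals of a gene share their RNA and libraries. A fold enrichment of a member in a single list was therefore a rough value.

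**Figure D2:**
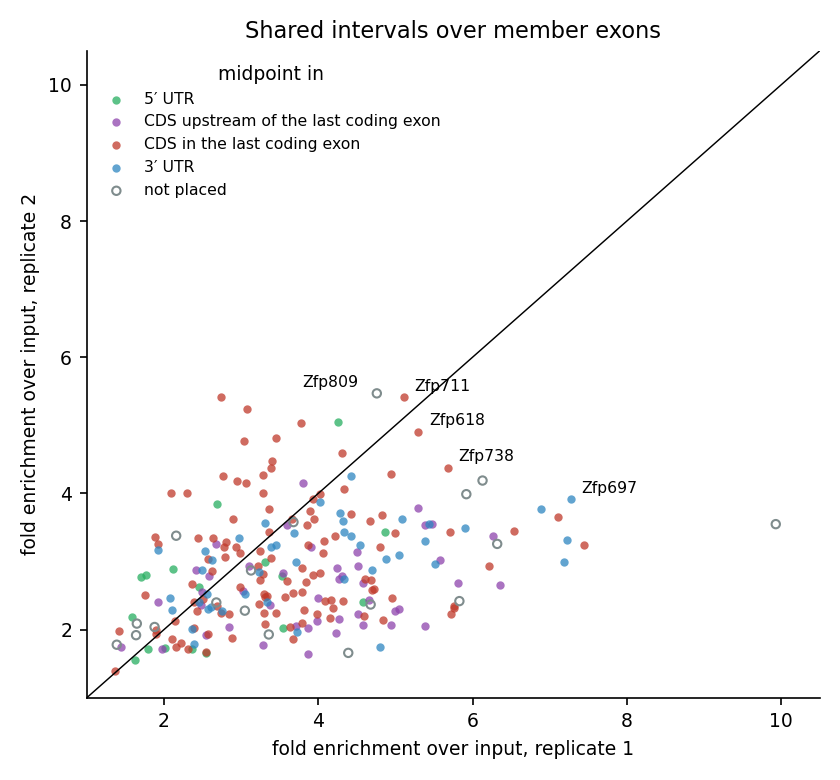
Fold enrichment over input of the 240 shared intervals of members in replicate 1 (x axis) and replicate 2 (y axis), coloured by the region of the midpoint; each point is 1 interval and the line marks equal values. Most points (175) lie below the line, and Zfp711, Zfp618 and Zfp809 are high in both replicates.

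The 10 members with the highest enrichment in both replicates, ranked by the lower of the 2 values, were Zfp711, Zfp618, Zfp809, Zfp738, Zfp655, Zfp786, Zfp827, Zfp790, Zfp664 and Zfp612. Zfp711, an X-linked gene whose human counterpart is linked to intellectual disability, had 5.11 and 5.41 in replicates 1 and 2 at chrX:112632530-112632934, in its last coding exon and 822 nt before the stop codon. Zfp618, whose product binds the 5-hydroxymethylcytosine reader Uhrf2, had 5.3 and 4.91 at chr4:63132631-63133140, also in the last coding exon. In both genes each replicate was above the upper quartile of its list. Zfp738 had 5.68 and 4.38 at chr13:67670464-67670716 in its finger-coding exon. Zfp786 had 4.94 and 4.29, again within the last coding exon and 318 nt before the stop codon.

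Zfp809, a KRAB protein that silences murine leukaemia virus and endogenous retroviruses through the proline tRNA primer binding site, had 3 shared intervals. The strongest, with 4.76 and 5.47 at chr9:22239369-22239985, lay outside its representative transcript, in an exon that is 3′ UTR in short alternative transcripts. A further interval with 7.19 and 2.99 covered the stop codon and held 4 GGACT. The remaining one had 3.1 and 2.94 in upstream CDS. Zfp664 had its strongest interval, with 6.13 and 4.19, in an exon of a non-coding transcript of the gene. Zfp827, whose human counterpart recruits the NuRD complex to telomeres, had 4.26 and 5.05 in an interval with its midpoint in the 5′ UTR. This Zfp827 interval began before the annotated start of the gene, and 293 of its 624 nt lay in the representative transcript. The strongest interval thus lay outside the last coding exon in these 3 genes. Over the 108 members with a shared peak, the strongest interval had its midpoint in last-exon CDS in 60, in the 3′ UTR in 24, in upstream CDS in 12, in the 5′ UTR in 3 and outside the representative transcript in 9.

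Stop codons were covered with the highest enrichment in Zfp655, Zfp612, Zfp697, Zfp866 and Zfp763. In Zfp655, which encodes a Vav-interacting zinc finger protein, the interval had 4.31 and 4.6 at chr5:145244724-145245070, with 2 further intervals upstream in the same exon. Zfp612 had 4.34 and 4.07 over 1419 nt that ran through the finger code and the stop codon. Zfp697 had 7.28 and 3.92 at chr3:98428550-98429100, the replicates differing by more than the SD of 0.53 on the log2 scale. Zfp866 had 3.93 and 3.92, and Zfp763 had 4.03 and 3.88. Except for Zfp697, the replicates were close in these genes. The genes were picked by the lower of the 2 values, which favours agreement between the lists.

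The 5 members with the longest last-exon CDS showed that length did not fix the number of peaks. Zfp619, with 3295 nt and 33 fingers, the most of any member, had 2 intervals, with 2.79 and 3.07 near the exon start and 3.78 and 5.03 over the stop codon. Zfp865, with 3177 nt, had 7 intervals, 3 of them in the last-exon CDS with replicate 2 values from 2.04 to 2.73. Zfp628, with 3117 nt, had 3 intervals, all in the last-exon CDS, the first with 4.19 and 2.32. Zfp629, with 2531 nt, had 7, the strongest with 4.83 and 3.68 near the exon start, and a 3′ UTR interval with 7.23 and 3.31. Zfp616, with 2964 nt, had no peak in either list. Some of the Zfp865 intervals overlap exons of another gene, and without strand their source cannot be told apart.

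Most members of known function carried several intervals. Zfp608 and Zfp609 encode large, related nuclear proteins of which Zfp609 is studied in cortical neuron development. Zfp608 had 6 intervals, the strongest with 5.29 and 3.78 in upstream CDS, and Zfp609 had 4, including a 2097-nt interval with 4.0 and 2.47 that held 4 GGACT. In all 4 intervals of Zfp609 replicate 1 was the higher, as it was in 77.8% of the intervals of all protein-coding genes. Zfp646, with 27 fingers, had 7 intervals, the strongest with 4.5 and 3.14 at chr7:127881954-127882979.

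Zfp638, the DNA-binding protein NP220 that silences unintegrated retroviral DNA, had 5 intervals of low enrichment, from 1.92 to 2.85 in replicate 1 and from 1.92 to 3.26 in replicate 2. Zfp644, a partner of the G9a and GLP histone methyltransferases, had 4, with 5.39 and 3.54 in the strongest by replicate 1 and 3.8 and 4.15 in the strongest by the lower value. Zfp687, a partner of Zmynd8, had 4.31 and 2.79 over 1368 nt of upstream CDS. The strongest interval of each of these genes lay upstream of the last coding exon.

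Zfp746 encodes PARIS, a parkin substrate that represses the gene for PGC-1alpha in dopamine neurons. Its single interval of 1384 nt, with 4.67 and 3.59 at chr6:48063563-48064946, ran over nearly the whole last-exon CDS and the stop codon and held 14 GGAC, 3 of them GGACT. Zfp703 encodes a co-repressor of the NET family. Zfp703 had 7.11 and 3.65 over its stop codon, and Zfp704 had 5.43 and 3.55 over its stop codon and 4.28 and 3.71 in an interval centred 3782 nt after the stop codon. Zfp750, a regulator of epidermal differentiation, had no peak in either list. Zfp746, Zfp703 and Zfp704 thus shared an interval over the stop codon.

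Peaks seen in a single list could still be strong. In replicate 1 alone, the highest fold enrichments were 6.12 in Zfp773, 5.62 in Zfp992, 4.94 in Zfp772, 4.22 in Zfp964 and 4.04 in Zfp677. In replicate 2 alone, they were 5.6 in Zfp758, 5.03 in Zfp708, 4.27 in Zfp991, 4.12 in Zfp975 and 3.63 in Zfp994. Zfp772 and Zfp773 lie next to each other on chromosome 7, and each had 4 peaks in replicate 1 and 0 in replicate 2. These members were picked for having no peak in the other list. Over all member peaks, 226 of 316 in replicate 1 (71.5%) and 232 of 283 in replicate 2 (82.0%) overlapped a peak of the other list. The shares were 67.8% and 76.8% over all protein-coding genes. They were 71.1% and 81.5% in Zfp1 to Zfp599, and 73.2% and 85.8% in the other long-exon genes.

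Within the last coding exon, the finger code was covered less than the rest. A finger unit was taken as 84 nt from the codon of its first zinc-binding cysteine, so that it includes the linker. In the 108 members with a shared peak, 33.3% of finger bases lay inside shared intervals, against 49.6% of the other last-exon CDS. The order was the same in the 46 members with a KRAB-like stretch (29.1% against 41.5%) and in the 62 without (38.8% against 54.2%). Of 58 members with at least 300 nt of each, 36 had the higher share outside the fingers, 19 within them and 3 had equal shares. Medians over these 58 were 36.2% for fingers and 52.1% for the rest.

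**Figure D3:**
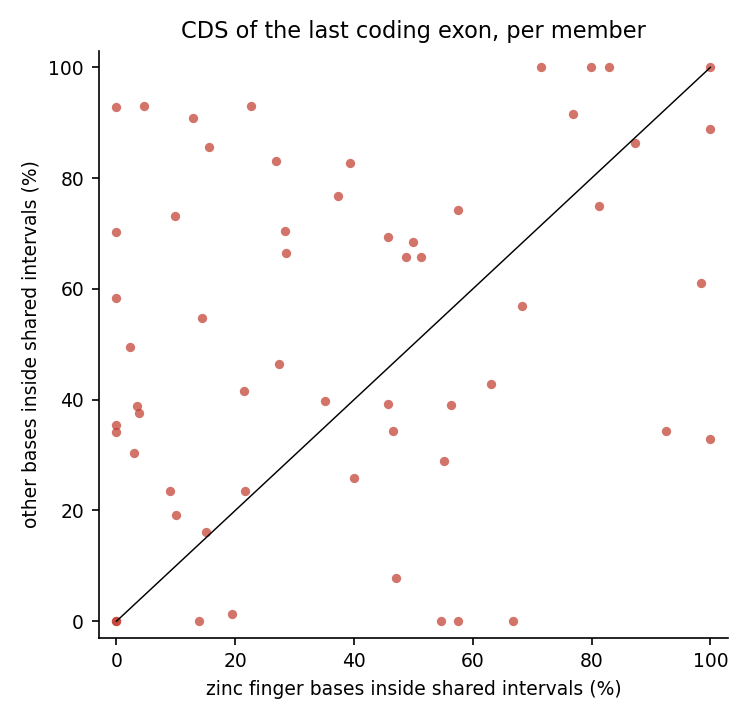
Percent of bases inside shared intervals for the zinc finger units (x axis) and the other CDS of the last coding exon (y axis) in 58 members with a shared peak and at least 300 nt of each; each point is 1 member and the line marks equal shares. 36 points lie above the line and 19 below, with a wide spread.

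Sequence content moved with this difference. In the last coding exon of these members GGAC occurred 1.57 times per kb of finger code and 4.12 times per kb of the rest, whereas DRACH was more even, at 19.36 and 23.07 per kb. Inside shared intervals of the last-exon CDS GGACT occurred 1.13 times per kb and outside them 0.47 times. For GGAC this was 4.0 and 1.57, and for DRACH 22.26 and 19.78. Over whole intervals, 91 of 218 (41.7%) held GGACT on the transcript strand, against 39.3% of all intervals of protein-coding genes, 78.9% held GGAC (76.7% of all), and 98.2% held DRACH (96.9% of all). The share of intervals with a motif in the members was thus near that of all genes, while the density differed between covered and uncovered parts of the same exons. Whether the motif content, the mapping of reads to repeated finger code or another feature goes with the lower coverage was not tested.

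GGACT within fingers kept to a few places. There were 76 GGACT in finger units of the 171 members. In 24 of them, in 17 members, the A lay 57 nt after the start of the first cysteine codon, as in Zfp606 above, and in 22 of these 24 the codons read arginine, threonine and histidine. In 19, in 17 members, it lay 7 nt after that start, as in Zfp619, in the codon just before the second cysteine. Among members with a shared peak, 11 of 18 sites of the first kind (61.1%) and 7 of 16 of the second (43.8%) lay inside a shared interval. The linker differed in that none of its 914 copies held GGACT. By contrast, 615 linkers (67.3%) held AAACC, and in members with a shared peak 53 of 244 such sites (21.7%) lay inside a shared interval, below the 33.3% of finger bases as a whole.

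Members with a KRAB-like stretch had a shared peak less often. This was 46 of 100 (46.0%, 95% Wilson interval 36.6 to 55.7) against 62 of 71 (87.3%, 77.6 to 93.2) without the stretch, beside 45.5% of all genes. The stop codon was covered in 14 of the 100 and in 34 of the 71, beside 23.1% of all genes. Among genes with a shared peak this was 14 of 46 and 34 of 62, beside 5080 of 9987 over all genes. Where both kinds had a shared peak, the median of the strongest lower fold enrichment was 3.06 and 3.18. The kinds thus differed in how many genes had a peak, and the medians of enrichment were close. No test was run on this difference, and the genes were not matched for expression.

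Repeated sequence moved with it. The methods give the mapped reads as uniquely placed. Repeated sequence was measured over 101 nt, the read length in the labels, although reads were paired, trimmed and in part of other lengths, so it is only an approximate measure of where reads could be placed. Of the members in which under 10% of the 101-nt stretches of the transcript recur elsewhere, 102 of 138 (73.9%) had a shared peak. This was 5 of 15 (33.3%) at 10% to under 50% and 1 of 18 (5.56%) at 50% or more, the latter being Zfp617, with 3.34 and 2.49. Of these 18 members, 17 had the KRAB-like stretch. Among the members under 10%, the share was 41 of 69 (59.4%) with the stretch and 61 of 69 (88.4%) without it. The lower share of the KRAB-like members was thus also seen among genes with little repeated sequence.

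**Figure D4:**
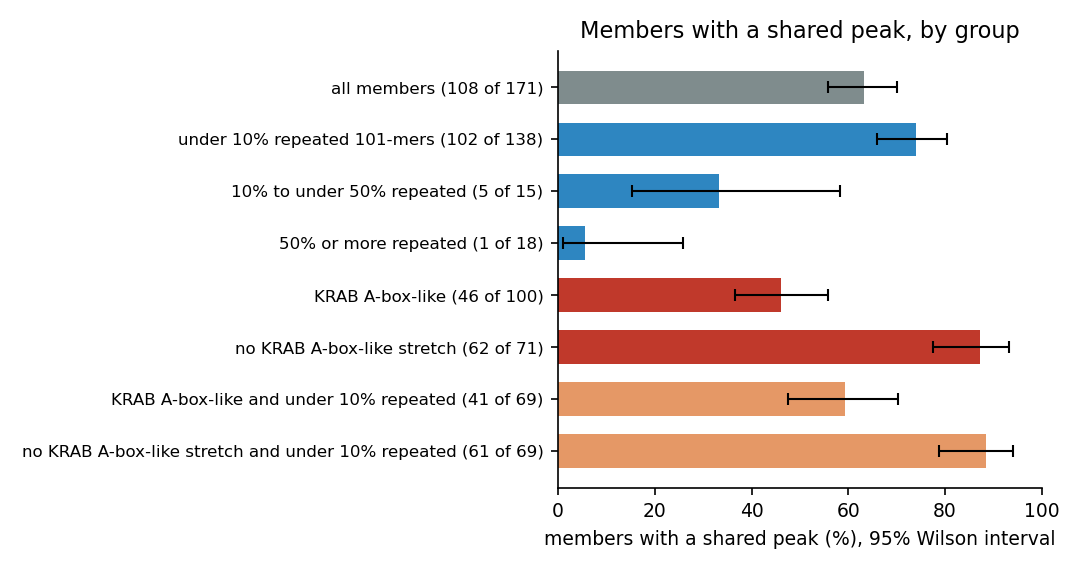
Percent of members with a shared peak (x axis), by repeated sequence and by the KRAB-like stretch; bars are shares of the members named at the left and whiskers are 95% Wilson intervals for counting error. The share runs from 5.56% at 50% or more repeated sequence to 88.4% in members without the stretch and with under 10% repeated.

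Clusters of neighbouring members differed in their share of genes with a shared peak. Of 17 neighbouring members at chr4:145510759-147848366, 14 had no peak in either list and 1, Zfp933, had a shared peak. Zfp933, with a repeated share of 0%, had 3 intervals. The strongest had 4.87 and 3.43 in the 5′ UTR, and another had 2.5 and 2.88 over the stop codon. The median repeated share in this cluster was 49.42%. The 4 neighbours Zfp965, Zfp966, Zfp968 and Zfp969 on chromosome 2 had no peak and a median repeated share of 100%. By contrast, all 9 neighbouring members at chr7:127244274-127885996 and all 6 at chr17:32765496-33033402 had a shared peak, with median repeated shares of 0%. Little repeated sequence did not always go with a shared peak. At chr17:21383748-22867134, with a median of 1.47%, 4 of 14 members had a shared peak, and at chr7:42579783-43618285, with a median of 0%, 4 of 8. The share was 3 of 6 at chr13:67038596-67687071, with a median of 0.48%, and 4 of 6 at chr8:69209038-69791178, with a median of 0.39%. Clusters of 2 to 4 members with a median under 10% also varied. A shared peak was found in 1 of 3 members for Zfp772, Zfp773 and Zfp954 on chromosome 7. The same count held for Zfp781, Zfp873 and Zfp938 on chromosome 10, where Zfp781 itself had a repeated share of 94.97% and no peak. It was 0 of 2 for Zfp616 and Zfp735 on chromosome 11 and 3 of 4 on chromosome 9. In the others of this size every member had a shared peak.

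Overlap with other genes also moved with the calls. The exons of 47 members overlap an exon of another gene, and 39 of them (83.0%) had a shared peak, against 69 of 124 (55.6%) of the members without such overlap. Over all protein-coding genes the shares were 59.1% and 39.7%. Since the lists carry no strand, a peak over such an exon may come from either gene, and its part in the count was not tested.

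The partners through which KRAB proteins act were described from a list of 17 co-repressor genes. Of these, 14 had a shared peak, beside 45.5% of all genes. Asking for a fold enrichment of 2 or more in each replicate left 10 of the 17, beside 36.8% of all genes. Trim28, the KRAB-binding scaffold, had no peak in either list. Setdb1, the histone H3 lysine 9 methyltransferase it recruits, had 2 shared intervals, the stronger with 3.64 and 3.5, and its cofactor Atf7ip had 5, with 3.78 and 3.08. The NuRD helicases Chd3 and Chd4 had 11 and 8 intervals, with 4.23 and 3.36 and with 4.03 and 2.78 in the strongest. The DNA methyltransferase Dnmt1 had 10, whereas Uhrf1, which recruits it, had none. Among genes of the HUSH complex, Mphosph8 had 3 and Fam208a 1, and Pphln1 had a peak in replicate 1 alone. Heterochromatin protein genes were weakly enriched, with 2.22 and 1.82 for Cbx1, 1.5 and 1.63 for Cbx3 and 2.28 and 1.47 for Cbx5.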

How the data were processed

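The authors mapped m6A pull-down and input reads to mm10 with TopHat2 (version 2.0.9 in the submitters' processing notes) and called peaks with MACS2, one list per pull-down replicate; the study's methods state that uniquely mapped reads were kept. The deposited lists give peak start, peak end and an enrichment, a ratio (fold) of pull-down to input signal. They hold no counts, so depth and intervals that need it are unknown.

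Exons, CDS and genes were taken from GENCODE M21. A peak belonged to a gene when it overlapped an exon by at least 1 bp. Shared intervals are intersections of overlapping peaks, so 1 long peak can give several. Regions refer to the transcript with the longest CDS, the stop codon counted as CDS; 6 members have an incomplete CDS there. Fingers, linkers and KRAB-like stretches were found by pattern in the translated CDS. Repeated sequence is the percent of 101-nt stretches (the labels' read length; reads were paired and adaptor-trimmed) found elsewhere in GRCm38. Motifs were searched on the transcript strand, and 1 site is not reported here. The overlap code was tested on simulated peaks, and the placement code on annotated transcripts and a planted interval. Stop codons were read at the annotated place in 541 of 544 transcripts checked. The motif search was not tested in this way.

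Named members were those with the 10 highest enrichments in both replicates, the 5 with the most intervals, the 5 strongest in each list alone, the 5 longest last-exon CDS, the 5 strongest over stop codons and members of known function; others were named after their values were seen. Members and lists were chosen with earlier results of these data known. With 1 group, no test was run. Alternatives were fold enrichment of at least 2, overlap of at least 50%, each replicate alone, other transcripts, windows and motifs, and subsets of members. Python 3.11.15, pandas 2.3.3, NumPy 2.4.6, SciPy 1.17.1 and matplotlib 3.10.9 were used.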

Additional observations from a re-analysis of the deposited data

How the results depend on the processing

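Under other settings, 68 values of 9 results were set beside the main ones. Of these, 59 stayed within the spread (the 95% interval of a share, 1.5 times a count, or the SD between the lists) and 9 moved. With each list alone, 46.0 to 51.5% of last-exon CDS bases of the members with a peak were covered, instead of 39.5%. With members that overlap no other gene, 69 had a shared peak, 55.6% of 124, and 59.8% of midpoints lay in last-exon CDS. Midpoints near the stop codon were 11.1% within 100 nt and 28.2% within 400 nt. GGACT lay in 17.4% of windows of 100 nt around the midpoint, GGAC in 78.9% and DRACH in 98.2% of intervals. Preferring transcripts with a complete CDS, chosen after seeing the data, changed no result beyond that spread. The overlap of 50% and the choice of transcript do not act on the medians of fold enrichment and were not run for them, and the transcript choices, like the subsets of members, do not act on the co-repressor list. No paired analysis was possible because there is 1 group with peak lists and no result comes from a test. Depth and expression are unknown, so the absence of a peak cannot be read as the absence of m6A.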

Other observations

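Peaks in introns of members were mostly in replicate 1, which also had more peaks in all (38533 against 30134). Such peaks were not counted over the introns of all genes, so whether this difference is particular to the members is unknown. Replicate 1 had 22 peaks that touched an intron of a member and no exon of it, in 20 members, and replicate 2 had 4, in 4 members. Intervals of both lists were found in the introns of 3 members, Zfp652, Zfp800 and Zfp950, named after their values were seen.

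Outside the named rule, the highest fold enrichment of any member in replicate 1 was 9.93, in Zfp976, where replicate 2 had 3.55. In replicate 2 Zfp882 had 5.41 and Zfp853 had 5.24 in their last coding exons, with 2.74 and 3.08 in replicate 1. These genes were also named after their values were seen, and each fold enrichment that stood out in a single list was below 4 in the other.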
